A study of Mus musculus with 6 samples.

Results

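Interferon regulatory factors were followed in bone marrow cells of mice with and without active Notch1. The members were the 14 probe sets that the array's annotation assigns to Irf1, Irf2, Irf3, Irf4, Irf5, Irf7, Irf8 or Irf9, among 45037 probe sets other than controls. They stand for 8 of 18193 genes tested. Irf3 had 4 probe sets, Irf4, Irf5 and Irf8 had 2 each, and the others had 1.

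The cells were LSK cells, sorted as negative for lineage markers and positive for cKit and Sca1, a fraction that contains hematopoietic stem cells and early progenitors. The 3 WT mice carried Mx1-cre. The 3 N1IC mice carried Mx1-cre and a lox-stop-lox N1-IC allele, which Cre opens so that the intracellular, active part of Notch1 is made. All were 5 weeks old. Both groups had received polyIC, 3 injections of 20 mcg per g of body weight from an age of 21 days, and the marrow was taken 2 weeks after the last one. The protocol text names Ncstn flox/flox animals, whereas the genotype, source and title labels name N1-IC, and the genotype labels set the groups here. Mx1-cre is switched on by interferon and so is active in many interferon-responsive cells, not in LSK cells alone. The WT arrays came from 2 males and 1 female, and the N1IC arrays from 3 females. By their titles, WT replicates 1 and 2 are replicate1b and replicate2b, and the other arrays carry no such letter. Each sample is labelled as a mouse, with no litter given, so p-values measure the spread between these animals.

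Interferon regulatory factors share an N-terminal DNA-binding domain with conserved tryptophans, which reads repeats of the letters GAAA. Irf3 and Irf7 are phosphorylated below sensors of foreign RNA and DNA and switch on type I interferon genes, and Irf9 is part of ISGF3, the complex that carries the interferon signal to its target genes. Irf1 is mostly an activator, induced by interferon gamma, and Irf2 often opposes it on the same sites. Irf4 and Irf8 act in blood cell development and bind many sites together with the ETS factor PU.1. Irf8 directs progenitors towards monocytes and dendritic cells, and Irf4 acts in B cells, plasma cells and some dendritic cells. PolyIC, a synthetic RNA duplex, is itself a ligand of Tlr3 and Ifih1, which signal through Irf3 and Irf7.

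The promoters of the members that differed between the groups are shown first, with the matches to motifs of interferon and Notch signalling that were searched in them. The sequences are RefSeq windows of assembly GRCm38.p6, from 250 bases before to 50 bases after the annotated start, on the plus strand. Capitals mark a GAS motif (TTCNNNGAA), a form of site through which interferon gamma acts on promoters, or the RBPJ motif (GTGGGAA), read by the DNA-binding partner of active Notch.
Irf1, chr11:53769764-53770063: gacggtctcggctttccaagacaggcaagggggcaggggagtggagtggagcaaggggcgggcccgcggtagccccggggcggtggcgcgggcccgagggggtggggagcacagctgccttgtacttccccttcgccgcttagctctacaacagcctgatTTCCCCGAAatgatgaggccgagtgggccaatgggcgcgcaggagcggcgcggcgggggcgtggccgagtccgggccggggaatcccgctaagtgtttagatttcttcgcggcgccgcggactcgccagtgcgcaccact
Irf8, chr8:120736108-120736407: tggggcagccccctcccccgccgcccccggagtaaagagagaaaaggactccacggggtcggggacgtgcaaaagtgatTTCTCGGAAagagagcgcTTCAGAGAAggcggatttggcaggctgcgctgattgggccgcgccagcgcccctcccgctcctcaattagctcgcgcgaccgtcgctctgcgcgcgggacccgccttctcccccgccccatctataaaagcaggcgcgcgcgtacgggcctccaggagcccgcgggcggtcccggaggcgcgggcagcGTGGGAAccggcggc
Irf4, chr13:30748983-30749282: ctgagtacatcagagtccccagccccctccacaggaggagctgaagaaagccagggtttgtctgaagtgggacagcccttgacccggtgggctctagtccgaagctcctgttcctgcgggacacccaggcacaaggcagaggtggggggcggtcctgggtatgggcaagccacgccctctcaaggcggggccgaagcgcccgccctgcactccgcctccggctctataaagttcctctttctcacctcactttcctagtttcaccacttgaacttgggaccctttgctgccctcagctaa

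Irf1 holds a GAS match from -90 to -82 relative to its start. Irf8 holds GAS matches from -171 to -163 and from -153 to -145, and an RBPJ match from 36 to 42. The Irf4 window holds none of the motifs searched, which says only that those letters are not in this window. Of 32851 windows in the table, which has more than 1 window for some genes, 8.3% hold a GAS match and 6.38% an RBPJ match on either strand. The ISRE core (GAAA, any 2 bases, GAAA), the site of ISGF3 and of the factors themselves, is in 3.44% of windows, and the composite (GGAA, any 2 bases, GAAA), bound by an ETS factor with Irf4 or Irf8, in 2.72%. Among 11 windows of the 8 members, 3 hold GAS, in Irf1, Irf2 and Irf8, and 2 hold RBPJ, in Irf3 and Irf8. Irf2 alone holds an ISRE core (GAAAATGAAA, -241 to -232) and a composite match (GGAAGTGAAA, -247 to -238), which overlap. A match is a description of the letters and not evidence of binding. The genes with GAS matches did not move together, since Irf1 was higher, Irf8 lower, and Irf2 did not pass the test.

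Irf8 and Irf4 fell and Irf1 rose in N1IC cells. The other 5 members, Irf2, Irf3, Irf5, Irf7 and Irf9, did not pass the test. Of the 8 members, 3 (37.5%) were thus called by limma at an adjusted p under 0.05, against 11.8% of all genes tested, with 1 higher, against 3.47% of all genes, and 2 lower, against 8.31%. Median change over the members was -0.03 on the log2 scale and that over all genes -0.01. The groups did not overlap for 4 members, against 32.8% of all genes. Of these, 1 lay wholly above WT, as did 13.1% of all genes, and 3 wholly below, as did 19.7%. Below, values are log2 intensities, in which 1 unit is a doubling, and every log2 fold change is taken as N1IC minus WT. Levels of different genes come from different probes and were not compared. In these sorted populations, fewer cells that express a gene and less RNA per cell cannot be told apart.

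**Figure D1:**
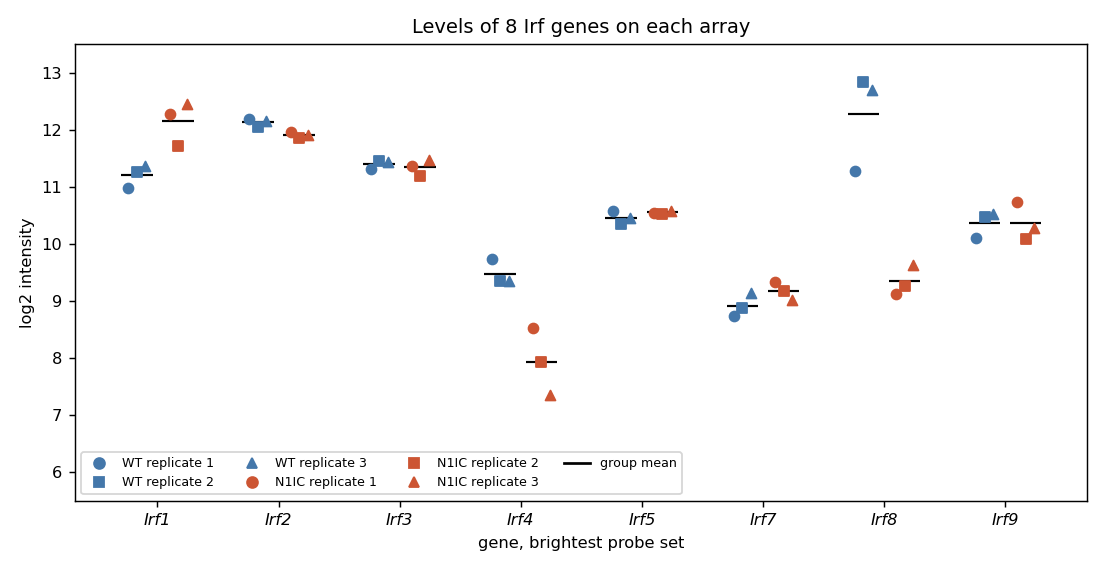
Log2 intensity of the brightest probe set of each Irf gene on each array, with blue symbols for WT, red symbols for N1IC, a symbol shape for each replicate number and a line at each group mean. The N1IC arrays lie below all WT arrays for Irf8, Irf4 and Irf2, by a wide gap for Irf8 and by 0.09 only for Irf2. They lie above all WT arrays for Irf1 and overlap with WT for Irf3, Irf5, Irf7 and Irf9.

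Irf8 (GRCm38.p6 chr8:120736358-120756694), the factor that guides progenitors to monocytes and dendritic cells, showed the largest change among the members. Its brighter probe set stood at 11.28, 12.83 and 12.69 in WT and at 9.13, 9.27 and 9.64 in N1IC. All N1IC arrays were thus at least 1.65 below the lowest WT array, which was WT replicate 1. The level fell from 12.27 ± 0.86 to 9.35 ± 0.26 (SD, n = 3), 7.58-fold, a log2 fold change of -2.92 ± 0.43 (SE; limma, Benjamini-Hochberg adjusted p = 0.0107). Of 18193 genes, Irf8 had the 86th lowest log2 fold change. The dimmer probe set read 9.61, 11.38 and 11.23 in WT and 7.49, 7.96 and 8.27 in N1IC. It repeated the order of the WT arrays and fell 7.12-fold.

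WT replicate 1 stood 1.55 below the highest WT array for Irf8, a wider spread than the 0.51 among N1IC arrays. Without that array the log2 fold change of Irf8 was -3.42 (limma, adjusted p = 0.00137). In the test over genes, Irf8 was called in each of the 6 fits made with 1 array missing (limma, adjusted p from 0.00137 to 0.046). Once sex entered the model, its log2 fold change was -3.49 and the adjusted p of limma 0.0533, over the threshold. The only WT female, WT replicate 2, had the highest WT level.

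Irf4 (chr13:30749233-30766981), a factor of lymphocyte activation and plasma cell development, is the closest relative of Irf8 in the family. Its brighter probe set stood at 9.74, 9.34 and 9.35 in WT and at 8.53, 7.93 and 7.35 in N1IC. The groups did not overlap, with a gap of 0.82, and the N1IC arrays spread over 1.18 against 0.40 in WT. The level fell 2.92-fold, a log2 fold change of -1.54 ± 0.30 (SE, n = 3; limma, Benjamini-Hochberg adjusted p = 0.0273). WT replicate 1, lowest of the WT arrays for Irf8, was the highest for Irf4.

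The dimmer Irf4 probe set, brighter than only 16.4% of all probe sets, read 4.18, 4.16 and 4.16 in WT and 3.77, 4.03 and 3.49 in N1IC. It did not overlap between the groups either, at a log2 fold change of -0.40 (95% interval -0.76 to -0.04), and did not pass the test over all probe sets. With both probe sets averaged, the log2 fold change of Irf4 was -0.97. The call of Irf4 was lost without WT replicate 1, 2 or 3 or N1IC replicate 2, where limma gave adjusted p from 0.0665 to 0.0815, and once sex entered the model, at 0.22. Without N1IC replicate 1 or 3 it was kept, with limma's adjusted p at 0.0185 and 0.0437.

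Irf1 (chr11:53770014-53778374), the activator induced by interferon gamma, changed in the opposite direction. It stood at 10.99, 11.25 and 11.36 in WT and at 12.28, 11.71 and 12.45 in N1IC. N1IC replicate 2 was the closest to WT, 0.34 above the highest WT array. The level rose 1.92-fold, a log2 fold change of 0.94 ± 0.22 (SE, n = 3; limma, Benjamini-Hochberg adjusted p over genes = 0.0431). Tested over all probe sets instead, the same probe set missed the threshold (limma, adjusted p = 0.0557). When 1 array at a time was removed, Irf1 was called only without N1IC replicate 2. Removing any of the other 5 gave adjusted p from 0.0885 to 0.132 in limma, and adding sex to the model gave 0.269.

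Irf2 (chr8:46739745-46847458), which can repress the sites that Irf1 activates, read 12.19, 12.05 and 12.15 in WT and 11.96, 11.85 and 11.91 in N1IC. The groups did not overlap, but by a gap of 0.09 only. Its log2 fold change was -0.22 (95% interval -0.42 to -0.03) and it was not called (limma, Benjamini-Hochberg adjusted p = 0.13).

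The factors that start the interferon response were measured next. Irf3 (chr7:44997648-45002848), present in most cells before any signal, read 11.30, 11.45 and 11.43 in WT and 11.36, 11.19 and 11.46 in N1IC on its brightest probe set. Its log2 fold change was -0.06 (95% interval -0.30 to 0.19), and a second bright probe set gave -0.04. On the dimmer probe sets of Irf3 the values were 0.32 and 0.45, with wide intervals, from -0.56 to 1.21 and from -0.54 to 1.44. None of the 4 probe sets separated the groups, and on all 4 WT replicate 1 was the lowest WT array and N1IC replicate 2 the lowest N1IC array.

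Irf7 (chr7:141263183-141266499), the interferon-induced amplifier of the response, read 8.74, 8.87 and 9.13 in WT and 9.32, 9.17 and 9.02 in N1IC. The groups overlapped through WT replicate 3 and N1IC replicate 3, and the log2 fold change was 0.26 (95% interval -0.07 to 0.58). The interval thus reaches from a small fall to a rise of 0.58.

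Irf5 (chr6:29526130-29541869), which acts below Toll-like receptors in myeloid and B cells, gave different signs on its probe sets. The brighter read 10.57, 10.35 and 10.46 in WT and 10.55, 10.53 and 10.57 in N1IC. The dimmer read 8.46, 9.22 and 9.17 in WT and 8.24, 8.70 and 8.51 in N1IC. Both overlapped between the groups, at log2 fold changes of 0.09 (95% interval -0.12 to 0.30) and -0.46 (95% interval -1.05 to 0.12). On the dimmer probe set WT replicate 1 was again the lowest WT array, as for Irf8.

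Irf9 (chr14:55603985-55610030), the DNA-binding subunit of ISGF3, read 10.10, 10.47 and 10.52 in WT and 10.73, 10.09 and 10.28 in N1IC. N1IC arrays lay both above and below all WT arrays. The group means were 10.36 and 10.36, and the 95% interval of the log2 fold change ran from -0.49 to 0.49. Its sign turned with another scaling, at 0.0084 after quantile normalization and 0.0098 after median centring.

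**Figure D2:**
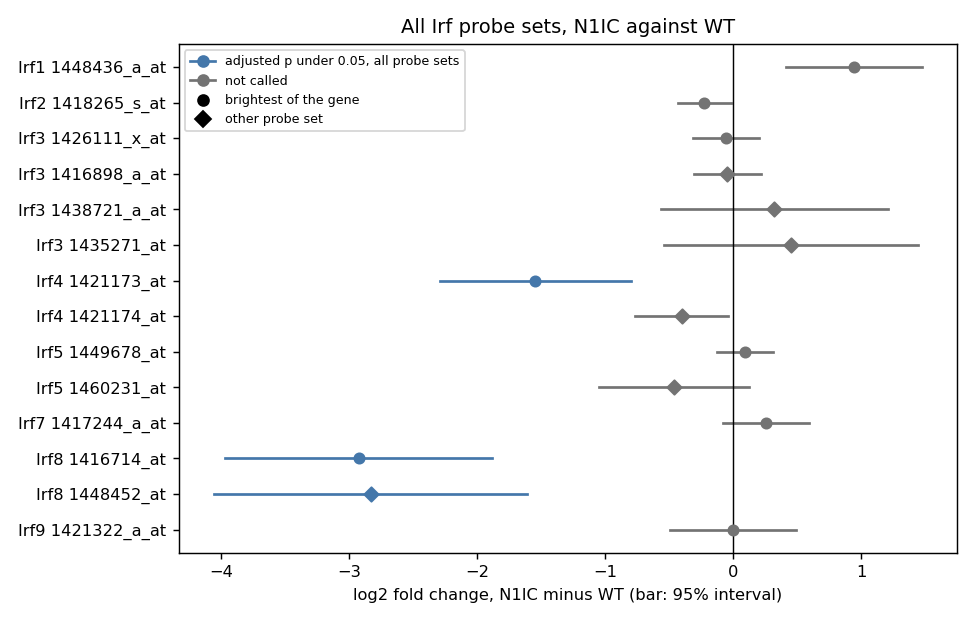
Log2 fold change, N1IC minus WT, of all 14 Irf probe sets with 95% intervals from limma, blue where the adjusted p over all probe sets is under 0.05. Both Irf8 probe sets and the brighter Irf4 probe set are called lower, and Irf1 lies at 0.94 without passing at this level.

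In the fit over all probe sets, 3 of the 14 Irf probe sets were called by limma, against 7.92% of all probe sets. These 3 were lower, against 4.76% of all, and 0 were higher, against 3.16%. At an unadjusted p under 0.05, 5 of the 14 were lower, against 12.0% of all probe sets, and 1 was higher, against 11.4%. With 1 array removed, from 0 to 2 of the 14 were called lower, and the count was 0 without WT replicate 3 or N1IC replicate 2. In this fit the brighter Irf8 probe set kept its call in 3 of the 6 removals, those of WT replicates 1 and 2 and N1IC replicate 3, and the dimmer in 1, that of WT replicate 1. The Irf4 probe set kept it in 1, that of N1IC replicate 1. Of the 14, 6 did not overlap between the groups, against 29.5% of all probe sets, with 5 wholly below WT, against 14.6%, and 1 wholly above, against 14.9%.

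Genes with the most similar profile were sought by the root mean square difference of log2 values over the 6 arrays, each gene centred on its own mean. This measure includes the difference between the groups and the level of every array. A near gene thus shares its size of change and its high and low arrays by the way it was chosen. Genes with provisional symbols were skipped. Nearest to Irf8 were Cd86, a costimulatory ligand of antigen-presenting cells, at 0.11, Ctsh, the lysosomal protease cathepsin H, at 0.13, and Sult1a1, a sulfotransferase, at 0.15. Cd86 read 8.0, 9.68 and 9.70 in WT and 5.91, 6.11 and 6.30 in N1IC, with WT replicate 1 the lowest WT array, as the choice by profile favours. Nearest to Irf4 were Dach1, a nuclear cofactor, at 0.12, Shank3, a scaffold protein, at 0.14, and Gucy1b1, a subunit of soluble guanylate cyclase, at 0.15. Nearest to Irf1 were Rel, a subunit of NF-kappaB, at 0.10, Mcts2 at 0.10 and Neil1, a DNA repair glycosylase, at 0.11.

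**Figure D3:**
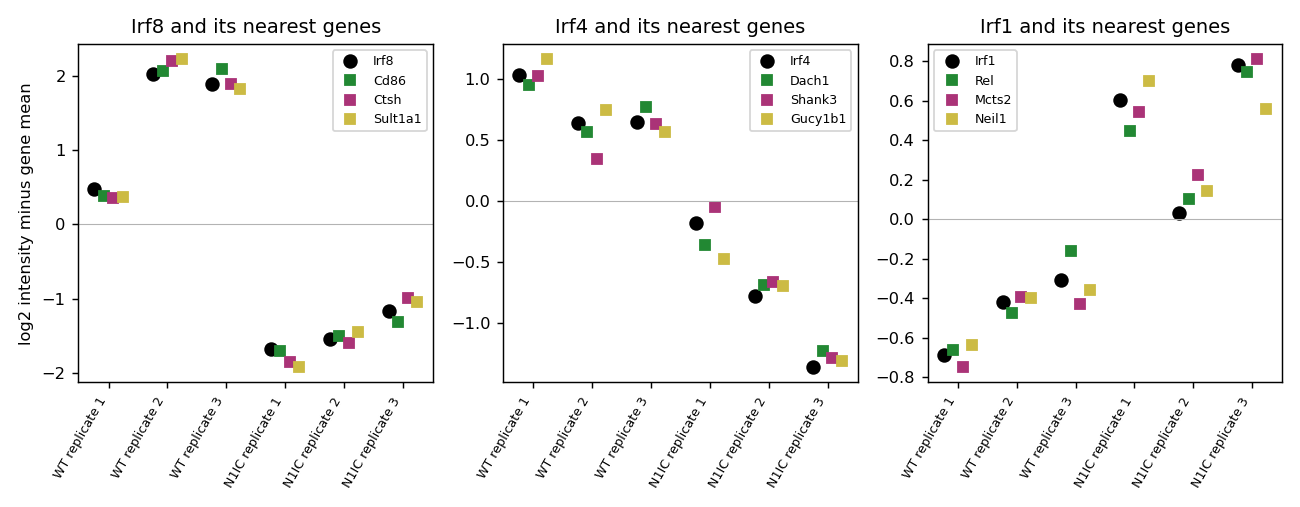
Log2 intensity minus the gene's mean over 6 arrays, for Irf8, Irf4 and Irf1 (black circles) and the 3 genes nearest to each among those without a provisional symbol (coloured squares), by array. Irf8 and its neighbours share a low WT replicate 1, Irf4 and its neighbours are lowest on N1IC replicate 3, and Irf1 and its neighbours are lowest among N1IC arrays on N1IC replicate 2. The neighbours were chosen for likeness over the arrays, so these shared patterns follow from the choice.

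Sensors, adaptors and kinases that activate the family were counted first among the surrounding genes. Of 19 measured, 5 fell and 0 rose at the same threshold in the limma fit over genes, against 8.31% and 3.47% of all genes. The median log2 fold change was -0.18. At an unadjusted p under 0.05, 7 were lower and 0 higher, where 16.9% of all genes were lower and 9.65% higher. The receptors among the 5 were Tlr3, which detects RNA duplexes including polyIC, 15.0-fold lower, Tlr4, the endotoxin receptor, 4.09-fold lower, and Tlr7, a receptor of single-stranded RNA, 3.41-fold lower. Ticam1, the adaptor of Tlr3, was 1.94-fold lower, and Cgas, the DNA sensor, 1.49-fold lower. Ticam1 lost its call without WT replicate 2 or 3 or N1IC replicate 2, and Cgas without WT replicate 3 or N1IC replicate 1. Tlr3 read 8.98, 11.34 and 11.39 in WT and 6.50, 6.58 and 6.90 in N1IC, again with WT replicate 1 below the other WT arrays. Tlr3 passed in 1 of the 6 fits with an array removed, the one without WT replicate 1, where it was 26.1-fold lower. With its probe sets averaged, Tlr4 was 1.88-fold lower. Members that did not pass, named after their values were seen, were Ifih1, the cytoplasmic sensor of polyIC, at 0.16, Mavs at -0.19, Sting1 at 0.08 and the kinase Tbk1, which phosphorylates Irf3, at -0.18. Without WT replicate 3, 2 of the list fell. The count was 3 on leaving out WT replicate 2 or either of N1IC replicates 1 and 2, and with sex in the model, 1. N1IC replicate 3 was the only array without which a member of the list, 1, was called higher. For this list and those below, fewer of all genes were called in these fits too. Instead of 1512, the genes called lower were 1420 without WT replicate 1 and from 835 to 1025 without any other array. With sex in the model they were 333.

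Among 19 measured partner transcription factors, 1 rose and 2 fell, with a median of -0.29, shares near the 3.47% and 8.31% of all genes. Rel rose 1.82-fold, and was the gene nearest in profile to Irf1 among those without a provisional symbol. Cebpa, a factor of granulocyte and monocyte progenitors that can induce Irf8, was 7.29-fold lower, at 12.12, 12.40 and 12.21 in WT and 9.43, 8.95 and 9.75 in N1IC. Batf2, a partner of Irf8 in dendritic cells and macrophages, was 1.96-fold lower, and with 1 array removed passed only without WT replicate 1. PU.1 itself (Spi1) stood at a log2 fold change of -0.39 (limma, adjusted p = 0.219), and Ets1 at 0.61 (limma, adjusted p = 0.0693). Both were named after their values were seen. With 1 array removed, Rel was called only without N1IC replicate 2. The number that fell was 3 without WT replicate 1 and 1 without any other single array.

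Of 10 measured interferon receptor and JAK-STAT genes, 2 fell and 0 rose by limma, against 8.31% and 3.47% of all genes. The median was -0.30. At an unadjusted p under 0.05, 5 were lower and 1 higher, against 16.9% and 9.65% of all genes. Il10rb, a chain shared by the receptors of interleukin 10 and interferon lambda, was 2.23-fold lower, and Ifnar1, a chain of the type I interferon receptor, 1.24-fold lower. Ifnar1 passed in 0 of the 6 fits with an array removed, and Il10rb in 2, those without WT replicate 1 and N1IC replicate 3. With all its probe sets averaged, Ifnar1 turned to a log2 fold change of 0.07, and Il10rb moved from -1.16 to -0.59. The number that fell was 0 without WT replicate 2 or 3 or N1IC replicate 2, or with sex in the model, 1 fell without N1IC replicate 1 or 3, and 3 fell without WT replicate 1.

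Interferon-stimulated genes, the targets of ISGF3, were called in both directions. Of 33 measured, 3 rose and 1 fell, with a median of 0.05, against 3.47% and 8.31% of all genes. At an unadjusted p under 0.05, 6 were higher and 8 lower, against 9.65% and 16.9% of all genes. Wholly above WT lay 7 and wholly below it 7, as did 13.1% and 19.7% of all genes. The chemokine gene Cxcl10 rose 5.27-fold, from 8.16, 8.54 and 8.88 to 10.90, 10.35 and 11.52, with N1IC replicate 2 the lowest N1IC array as for Irf1. Oasl1, a relative of the oligoadenylate synthetases, rose 1.45-fold and Ifi35 1.31-fold, while Ifitm3, a membrane protein that restricts virus entry, was 1.30-fold lower. Mx1, whose promoter drives the Cre transgene in both groups, read 7.81, 8.12 and 9.54 in WT and 6.92, 6.08 and 6.70 in N1IC, and did not pass (limma, adjusted p = 0.0565). Mx1 was named after its values were seen, as were Ifit1, Usp18 and Rsad2, at log2 fold changes of 0.08, 0.21 and 0.23. Neither Ifitm3 nor Ifi35 passed in any of the 6 fits with an array removed. Removing WT replicate 2 or 3, or N1IC replicate 2 or 3, left 0 of the list lower.

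Of 19 measured targets of Irf1 and interferon gamma, 4 rose and 1 fell, with a median of 0.16, against 3.47% and 8.31% of all genes. At an unadjusted p under 0.05, 6 were higher and 3 lower, against 9.65% and 16.9% of all genes. The inflammatory protease gene Casp1 rose 1.5-fold, the GTPase Gbp2 1.41-fold, the immunoproteasome subunit Psmb10 1.35-fold, and the cytokine inhibitor Socs1 1.31-fold. Il15, a cytokine for lymphocytes, was 2.51-fold lower, a call lost without WT replicate 2 or N1IC replicate 1. Casp1 passed in all 6 fits with an array removed, Gbp2 in 1, the one without WT replicate 3, and Psmb10 and Socs1 in 0. With sex in the model 0 of the list rose. Without WT replicate 1, 3 genes of the list fell, and without WT replicate 2 or N1IC replicate 1, 0 fell.

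Of 21 measured targets of Irf8 and genes of monocytes and dendritic cells, 5 fell and 0 rose by limma. Of all genes 8.31% fell and 3.47% rose. The median of the list was -0.84. At an unadjusted p under 0.05, 11 were lower and 2 higher, against 16.9% and 9.65% of all genes. Naaa, a lysosomal amidase, was 12.4-fold lower, Mpeg1, a pore-forming protein of phagocytes, 10.1-fold, Flt3, the receptor that sustains dendritic cell development, 8.47-fold, Xcr1, a chemokine receptor of cross-presenting dendritic cells, 7.5-fold, and Cst3, a protease inhibitor, 1.41-fold. Naaa read 8.92, 11.53 and 11.52 in WT and 6.74, 7.37 and 6.96 in N1IC, and Mpeg1 10.64, 12.42 and 12.57 against 8.18, 8.75 and 8.71. For both, as for Irf8, WT replicate 1 lay between the other WT arrays and the N1IC arrays. For Flt3, at 12.49, 12.54 and 12.74 in WT, WT replicate 1 was also the lowest WT array, but close to the others. Naaa, Xcr1 and Cst3 passed in 1 of the 6 fits with an array removed, the one without WT replicate 1. In that fit Naaa was 22.7-fold and Xcr1 13.1-fold lower, and Mpeg1, which lost its call without N1IC replicate 1, 15.5-fold. With its probe sets averaged, Naaa was 6.73-fold lower. Without WT replicate 1, 11 of the 21 fell. With WT replicate 2 or 3, or N1IC replicate 2 or 3, removed instead, 2 fell, and without N1IC replicate 1 or with sex in the model, 1. Of all genes, 1420 fell without WT replicate 1, from 835 to 1025 without any other array, and 333 with sex in the model.

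Of 14 measured B-lineage genes in which Irf4 and Irf8 are known to act, 7 fell and 0 rose by limma. Of all genes 8.31% fell and 3.47% rose. The median of the list was -1.03. At an unadjusted p under 0.05, 7 were lower and 2 higher, against 16.9% and 9.65% of all genes. Ebf1, a factor of B-lineage commitment, was 45.6-fold lower, Blnk, an adaptor of the pre-B receptor, 37.7-fold, Igll1 29.8-fold and Vpreb1 6.80-fold, both of the surrogate light chain, and the signalling chains Cd79a and Cd79b 14.7-fold and 1.55-fold. With probe sets averaged, Ebf1 was 13.3-fold and Igll1 14.1-fold lower. With 1 array left out, 6 or 7 fell, and with sex in the model 5. Il7r, named after its value was seen, went the other way at a log2 fold change of 1.34 (limma, adjusted p = 0.0656), and without WT replicate 1 a gene of the list was called higher. Of the proteins that bind Irf2, 3 were measured and 0 passed by limma, with Irf2bp2 at 0.11 and Irf2bpl at 0.68. With probe sets averaged, Irf2bpl stood at 0.48 and passed (limma, adjusted p = 0.0497). Unadjusted, 1 of the 3 was higher and 1 lower at a p under 0.05, against 9.65% and 16.9% of all genes.

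**Figure D4:**
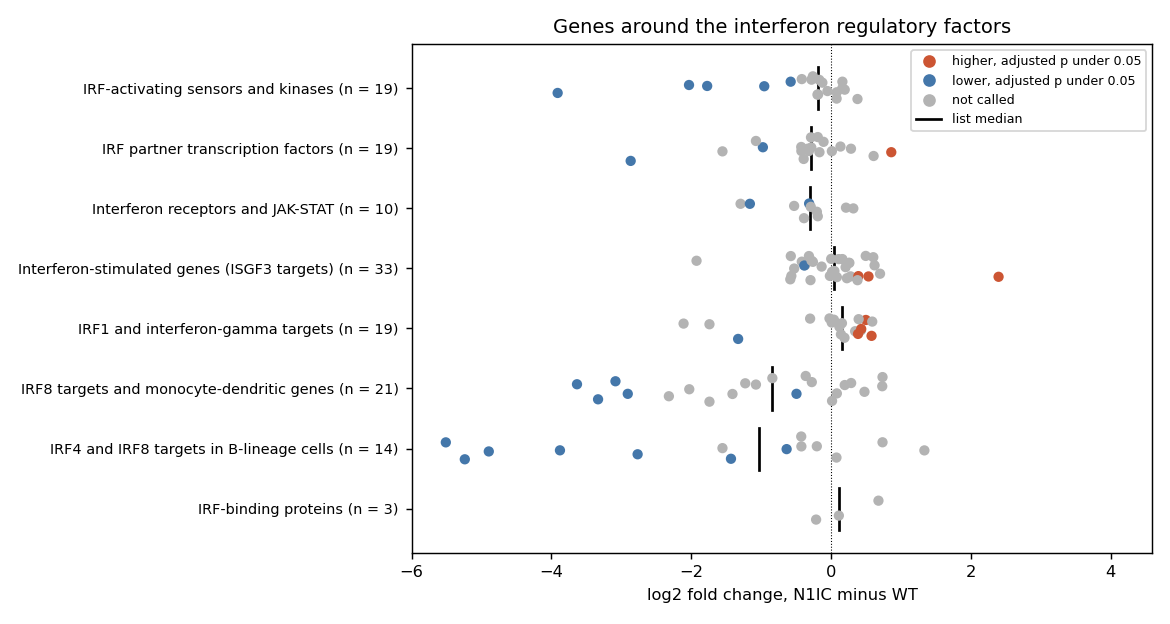
Log2 fold change, N1IC minus WT, of every measured gene of 8 lists around the interferon regulatory factors, 1 point a gene, red if called higher and blue if called lower at an adjusted p under 0.05 by limma, with a black line at each list's median. The medians of the Irf8 and B-lineage lists lie at -0.84 and -1.03, and that of the interferon-stimulated genes at 0.05.

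Markers of cells that the sort should remove were read beside Irf8. For comparison with the counts of markers called, 3.47% of all genes were called higher and 8.31% lower. Over 11 measured dendritic cell markers the mean log2 level was 8.85 on WT replicate 1, 10.32 and 10.21 on the other WT arrays, and between 8.47 and 8.63 in N1IC. Over 12 markers of mature granulocytes and monocytes it was 9.49, 11.37 and 11.25 in WT and between 9.02 and 9.74 in N1IC, and 2 of the 12, Cd14 and Cxcr2, fell. Both lists thus order the WT arrays as Irf8 does, and 2 of 11 dendritic markers, Xcr1 and Flt3, passed. Both are in the Irf8 list too, and Flt3 is also among the markers of the LSK compartment, which leaves Xcr1 as the only called marker of dendritic cells that is not an LSK marker. At an unadjusted p under 0.05, 6 of the 11 dendritic markers and 7 of the 12 of granulocytes and monocytes were lower. None of either list was higher at that level. Of all genes 16.9% were lower and 9.65% higher. The part of these cells in the level of Irf8 was not tested. Over 9 B-lineage markers the mean was between 9.71 and 10.24 in WT and between 7.05 and 7.55 in N1IC, and 6 fell. These were Ebf1, Blnk, Igll1, Vpreb1, Cd79a and Cd79b, the same genes already named above from the B-lineage list. Of 10 T-lineage markers 7 rose, with means between 6.48 and 7.68 in WT and between 10.08 and 10.79 in N1IC. Over 8 macrophage markers the mean was between 6.67 and 7.31 in WT and between 6.88 and 8.14 in N1IC, and 2 rose. Of 4 erythroid markers 1 fell, with means from 8.89 to 9.70 and from 9.06 to 9.50. No detection calls were used, so no marker can be called absent. Over 6 markers of the LSK compartment the mean was between 11.70 and 11.87 in WT and between 10.27 and 10.40 in N1IC. Of these 6 markers 4 fell, with a median log2 fold change of -1.25 over the list, and Kit did not pass, at -0.25.

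The Notch target Hes1 was 13.4-fold higher in N1IC and Notch1 was 1.66-fold higher. Median intensity ranged from 89.0 to 92.4, and precision is limited by having 6 arrays. A principal component with 15.4% of the variance set WT replicate 1 apart. All N1IC mice are female, so sex and genotype can be separated only through WT replicate 2, the WT female. On that array Irf8 read 12.83, Irf4 9.34 and Irf1 11.25. Each lies on the WT side of all N1IC arrays, as every WT array does where the groups do not overlap. With sex in the model none of the 3 was called (limma, adjusted p of 0.0533, 0.22 and 0.269).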

How the data were processed

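RNA of 6 LSK samples, 3 WT and 3 N1IC, had been amplified with the Nugen Ovation system, biotin-labelled and hybridised to Affymetrix arrays, per the labels' protocols. The authors made the deposited intensity values with RMA, per the submitters' processing notes, with 1 value per probe set. The version of RMA is not given in the sources used here. The deposited values are linear, as their range shows, and log2 was taken. Of 45101 probe sets, 64 were controls, 34945 had 1 gene symbol, 932 had several and 9160 had none. Symbols were updated through RefSeq genes of GRCm38.p6, which hold 34741 of those with 1 symbol. Each gene was represented by its probe set with the highest mean.

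The groups were tested against each other in limma 3.58.1 under R 4.3.3 (lmFit, then eBayes, two-sided), with Benjamini-Hochberg adjustment over 18193 genes, or over 45037 probe sets, and a threshold of 0.05. The test was checked on simulated data. Lists are described by counts and medians. The named genes were all members, up to 6 called genes of each list by smallest p, or else its brightest 2, and the 3 genes nearest in profile to each called member. Genes with provisional symbols were skipped in the search for the nearest. The members and lists were chosen with earlier results of these data known. All 8 members had a promoter window in RefSeq's table. Alternatives were sex as a covariate, a block for the replicate number, repeated quantile normalization, median centring, the brighter 60% or 40%, a trend or robust prior, array weights, averaged probe sets, and leaving out each array. Neither scanner files nor detection calls entered the work. Figures come from matplotlib 3.10.9 (Python 3.11.15).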

Additional observations from a re-analysis of the deposited data

How the results depend on the processing

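Quantile normalization, median centring and a robust prior left the number of Irf genes called at 1 higher and 2 lower, and the calls of Irf8, Irf4 and Irf1 as they were. Deviations of same-numbered arrays correlated at -0.09, -0.09 and 0.10, and those of differently numbered arrays at values from -0.10 to 0.17. With 3 arrays a group, such values cannot decide whether the replicate number pairs the samples. With the replicate number as a block, 357 genes were higher and 936 lower instead of 632 and 1512. Under this block 0 Irf genes were higher (Irf1 adjusted p = 0.0795, limma), 0 Irf1 targets higher and 0 lower, 1 partner factor lower, 0 receptor genes lower and 0 interferon-stimulated genes lower. With sex as a covariate, 116 genes were higher and 333 lower, and 0 Irf genes and 0 Irf probe sets were called. In that fit 0 partners, 0 interferon-stimulated genes and 0 Irf1 targets were higher, and 1 sensor, 1 partner, 0 receptor genes, 0 interferon-stimulated genes, 0 Irf1 targets and 1 Irf8 target were lower.

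In the brighter 60%, 1 Irf probe set was higher and 3 interferon-stimulated genes lower. In the brighter 40%, where Irf4 and Irf7 left the test over genes but not that over probe sets, 1 Irf probe set and 1 B-lineage gene were higher, and 1 Irf gene, 1 sensor, 3 interferon-stimulated genes, 0 Irf1 targets and 3 B-lineage genes were lower. An intensity trend gave 1 Irf probe set, 3 partners and 1 B-lineage gene higher and 2 interferon-stimulated genes lower. Array weights gave 1 Irf probe set higher and 2 interferon-stimulated genes lower. Averaged probe sets gave 4 partners, 1 B-lineage gene and 1 Irf-binding gene higher, and 1 receptor gene and 3 interferon-stimulated genes lower. Under the same averaging the log2 fold change turned to 0.17 for Irf3, -0.19 for Irf5, 0.071 for Ifnar1 and -0.058 for Irf2bp2. Irf9 turned to 0.0084 after quantile normalization and 0.0098 after median centring, and the brighter of the dim Irf3 probe sets to -0.071 with sex as a covariate. The causes of these changes were not tested.

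With each array left out in turn, the counts of higher calls ran from 0 to 1 for Irf genes, Irf probe sets, sensors, partners and B-lineage genes, and from 1 to 2 for Irf1 targets. The counts of lower calls ran from 1 to 2 for Irf genes, 0 to 2 for Irf probe sets, 2 to 5 for sensors, 1 to 3 for partners, 0 to 3 for receptor genes, 0 to 1 for interferon-stimulated genes, 0 to 3 for Irf1 targets and 1 to 11 for Irf8 targets. Over all genes in these fits, from 332 to 509 were higher and from 835 to 1420 lower, instead of 632 and 1512. The log2 fold change ran from -0.18 to 0.14 for Irf9, from -0.12 to 0.018 for Irf3 and its brightest probe set, from -0.11 to 0.018 for its other bright probe set, and from -0.0056 to 0.57 for the brighter of its dim ones. Only 3 arrays a group limit what could be called, and dim probe sets, such as the second of Irf4, were read near the bottom of the intensity range.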
